A study of Mus musculus with 16 samples.

Results

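CD9+ and CX3CR1+ macrophages were compared on day 14 after surgery, across all genes that passed a filter on low values. The comparison rests on 4 of the 16 libraries of the series, 2 of CD9+ and 2 of CX3CR1+ macrophages, chosen by their labels alone. All mice were adult male wild-type C57BL/6 animals that had undergone anterior cruciate ligament reconstruction (ACLR), in which the cut ligament is replaced by a tendon graft drawn through bone tunnels in femur and tibia. Interface tissue around the graft was digested, and live Lin- CD45+ Ly6G- CD11b+ F4/80+ cells were sorted either as CD9+ or as CX3CR1+ cells. The few cells that carried both proteins fell into the CD9+ sort, and each library was a pool of several mice. Ly6G+ neutrophils and F4/80- myeloid cells of the same day and the same 4 populations of day 1 entered the fit as further groups. The question was how these 2 macrophage populations, sorted from the same healing tissue, differ in their transcripts.

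CX3CR1, the fractalkine receptor, and CCR2, the receptor for CCL2, mark cells of the monocyte lineage that enter injured tissue from the blood. Such cells lose monocyte genes as they turn into tissue macrophages, and may then clear dead cells, remodel matrix or fuse into osteoclasts. CD9 is a tetraspanin, a membrane organizer found on some macrophages and also on granulocytes, platelets and many other cells. Type I interferon acts through JAK kinases on a complex of STAT proteins and IRF9, which binds the interferon-stimulated response element in the promoters of antiviral genes.

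The CD9+ libraries held 9426068 and 9233952 counts, and the CX3CR1+ libraries 10254500 and 9996159 counts. Values per library are given as CPM, counts scaled to a fixed library total, on library sizes adjusted by TMM factors. A log2 fold change is CD9+ minus CX3CR1+ and is followed by its standard error (SE, n = 2 libraries in each group). Fewer cells of a type and less RNA per cell of that type cannot be told apart in sorted bulk samples. Without molecular identifiers, amplified reads are not independent copies, so the intervals of ratios cover counting error only.

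The sort antigens were measured first. Cd9 (chromosome 6, 125460266 to 125494791, mm10) was read at 142 and 184 CPM in the CD9+ libraries and 6.62 and 6.5 CPM in the CX3CR1+ libraries (log2 fold change 4.63 ± 0.16, adjusted p = 6.10e-11, edgeR quasi-likelihood test). Cx3cr1 (chromosome 9, 119901616 to 120069879, mm10) was read at 78.1 and 108 CPM in the CD9+ libraries and 253 and 293 CPM in the CX3CR1+ libraries (log2 fold change -1.55 ± 0.17, adjusted p = 7.26e-06). The libraries of the populations did not overlap for either gene, and Cx3cr1 RNA was also present in the CD9+ sort. Of all 11998 genes tested, both CD9+ libraries lay above both CX3CR1+ libraries in 34.5% and below them in 33.8%. Cd9 RNA was also present in F4/80- cells and neutrophils, at means of 117 ± 5.32 and 346 ± 0.305 CPM (mean ± SD, n = 2 libraries, as for all means below). Ly6g, the neutrophil antigen that both gates exclude, was low in both populations, with 4.99 and 2.64 CPM in the CD9+ libraries and 0.436 and 0.65 CPM in the CX3CR1+ libraries (log2 fold change 2.81 ± 0.65), and the call of Ly6g was lost without CD9+ replicate 1 (2.27) or CX3CR1+ replicate 1 (2.54). Adgre1, which encodes F4/80, stood at 145 and 217 CPM in the CD9+ libraries and 143 and 165 CPM in the CX3CR1+ libraries and Itgam, which encodes CD11b, at 208 and 209 CPM in the CD9+ libraries and 177 and 194 CPM in the CX3CR1+ libraries, and neither gene was called.

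A gene was called when its Benjamini-Hochberg adjusted p was under 0.05 and its absolute log2 fold change at least 1. Of 11998 genes tested, 1158 (9.65%) were called higher and 546 (4.55%) lower in CD9+ macrophages, 1704 (14.2%) in all. The median log2 fold change of all tested genes was 0.0065, with 6055 genes above 0 and 5929 below. The calls differed in size between directions. Among genes called higher 730 reached an absolute log2 fold change of 2 and 324 reached 4, and among genes called lower 107 and 4 did. In 170 of the genes called higher, both CX3CR1+ libraries held 3 counts or fewer, so that their fitted fold change depends on the prior count, and the same held for 8 of the genes called lower. A stricter filter, a mean of at least 3 CPM in each of the 8 groups, leaves out genes that were lower in any 1 of them. Of the 7687 genes left, 423 were called higher and 272 lower. Where this filter moved a list's count of 5 or more called members by over 1.5 times, the count under it is given beside the first. Each list count below is to be read beside the shares over all genes tested, 9.65% higher and 4.55% lower.

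**Figure D1:**
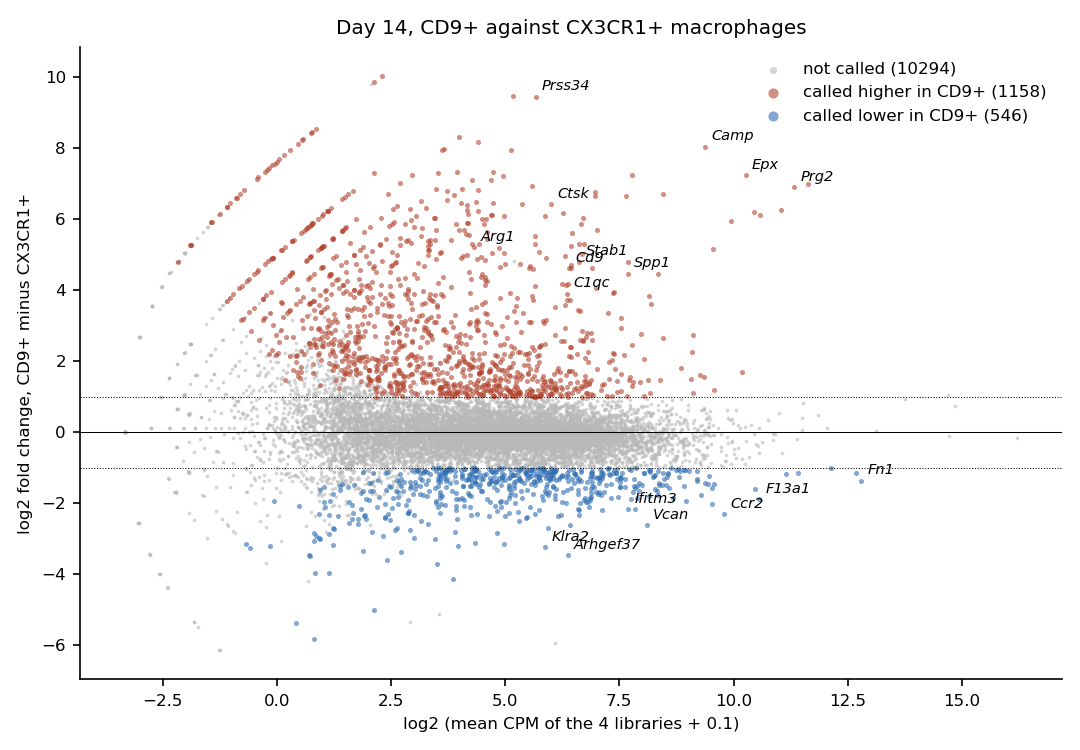
Difference between CD9+ and CX3CR1+ macrophages on day 14 (log2 fold change, vertical axis) against the mean level of a gene in the 4 libraries (log2 of CPM + 0.1, horizontal axis), 1 point per tested gene, dotted lines at log2 fold changes of -1 and 1. The 1158 genes called higher spread up to large differences, while 4 of the 546 genes called lower reached an absolute log2 fold change of 4, and the diagonal bands at low levels are genes with very few counts in 1 population.

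The leading genes called higher in CD9+ macrophages included genes of basophils, neutrophils and eosinophils and an immunoglobulin gene. By the rule for named genes they were Ighg3, Prss34, Tuba8, Cpa3, Camp, Ms4a2, Gata2, Perp, Prom1, Gfi1, Alox12e, Orm1, Alox15, Epx and Mcpt8. Prss34, a serine protease of basophils, was read at 115 and 88.4 CPM in the CD9+ libraries and 0.0871 and 0.186 CPM in the CX3CR1+ libraries, a ratio of 755 (95% exact interval 258 to 3666). Camp, the cathelicidin of neutrophil granules, was read at 1565 and 1091 CPM in the CD9+ libraries and 3.66 and 6.4 CPM in the CX3CR1+ libraries (log2 fold change 8.05 ± 0.50, adjusted p = 2.64e-08). Epx, the peroxidase of eosinophils, was read at 1816 and 3066 CPM in the CD9+ libraries and 22 and 10.1 CPM in the CX3CR1+ libraries (log2 fold change 7.24 ± 0.64). Ighg3, an immunoglobulin heavy chain gene whose reads can be shared with its near copies, differed more between its own replicates, with 103 and 39.4 CPM in the CD9+ libraries and 0 and 0.186 CPM in the CX3CR1+ libraries. Camp had means of 2959 ± 199 CPM in F4/80- cells and 3480.0 ± 168 CPM in neutrophils. The rule asked for genes without overlap between the libraries, so their direction in every library is part of the choice.

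Genes called lower in CD9+ macrophages, and so higher in CX3CR1+ macrophages, were led by Gm6545, Arhgef37, Rab36, Klra2, Ms4a8a, Gm9733, Abca6, Sirpb1b, Mx2, Cyp27a1, Ifi213, BC147527, Gprin3, Slfn1 and Gad1-ps. Arhgef37, which encodes a guanine nucleotide exchange factor, was read at 14.2 and 13.2 CPM in the CD9+ libraries and 140.2 and 164 CPM in the CX3CR1+ libraries (log2 fold change -3.47 ± 0.29, adjusted p = 4.04e-07). Klra2, a lectin-like receptor of the Ly49 family, was read at 11.3 and 10.9 CPM in the CD9+ libraries and 103 and 108 CPM in the CX3CR1+ libraries (log2 fold change -3.24 ± 0.20), with a mean of 103 ± 0.754 CPM in neutrophils. Cyp27a1, the sterol 27-hydroxylase, was read at 5.47 and 8.31 CPM in the CD9+ libraries and 39.9 and 58.6 CPM in the CX3CR1+ libraries (log2 fold change -2.84 ± 0.32). Mx2, Ifi213 and Slfn1 of this group belong to interferon-responsive families. Gm6545 and Gad1-ps are annotated as pseudogenes and Mx2 as a polymorphic pseudogene, and Klra2, Sirpb1b, Ifi213 and Slfn1 have close relatives, so reads may be shared between copies. The call of Gprin3 was lost without CD9+ replicate 1 (-2.97), CD9+ replicate 2 (-2.59) or CX3CR1+ replicate 2 (-2.54), and the call of BC147527 was lost without CD9+ replicate 2 (-2.64).

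Markers of other cell types moved with the populations, and their whole lists are given ahead of the macrophage gene groups. Of 14 tested eosinophil markers, 13 were called, all higher in the CD9+ sort (2 of 2 under the stricter filter), and the summed level of the 15 listed genes in the table was 7999.5 and 12662 CPM in its libraries against 212 and 189 CPM in the CX3CR1+ libraries. Prg2, the major basic protein of eosinophil granules, was read at 3927 and 6237 CPM in the CD9+ libraries and 53.1 and 31.8 CPM in the CX3CR1+ libraries. Siglecf, the defining surface marker, was read at 43 and 59.4 CPM in the CD9+ libraries and 0.61 and 0.835 CPM in the CX3CR1+ libraries, and Ccr3, the eotaxin receptor, at 39.9 and 36.6 CPM in the CD9+ libraries and 0.349 and 0.186 CPM in the CX3CR1+ libraries. In F4/80- cells the summed level was 550.1 and 589 CPM and in neutrophils 1477 and 1406 CPM, so that of the 4 sorts of day 14 the CD9+ sort held the most eosinophil transcripts. Ear1, Ear2 and Ear6 are near copies, and their separate values are uncertain.

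All 10 tested basophil and mast cell markers were called higher (1 of 1 under the stricter filter), with a sum of 614 and 522 CPM in the CD9+ sort and 7.84 and 10.3 CPM in the CX3CR1+ sort. Their sum in F4/80- cells was higher again, at 2326 and 2153 CPM. Mcpt8, a basophil protease, was read at 69.9 and 52.6 CPM in the CD9+ libraries and 0.261 and 0.557 CPM in the CX3CR1+ libraries, and Gata2, a transcription factor of basophils and mast cells, at 84.6 and 55.3 CPM in the CD9+ libraries and 0 and 0.557 CPM in the CX3CR1+ libraries. Each of these markers had counts in both CD9+ libraries, and 2 were without a count in each CX3CR1+ library, Fcer1a and Gata2 in replicate 1 and Il4 and Ms4a2 in replicate 2.

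Neutrophil markers moved in both directions. Of 20 tested, 17 were called higher and 2 lower, with a summed level of 25001 and 16586 CPM in the CD9+ sort, 1049 and 1166 CPM in the CX3CR1+ sort and 133550.0 and 141240.0 CPM in neutrophils. The granule genes of immature neutrophils were among the highest, Ngp at 7544 and 4975 CPM in the CD9+ libraries and 31.5 and 67.6 CPM in the CX3CR1+ libraries and Ltf, lactoferrin, at 3759 and 2318 CPM in the CD9+ libraries and 26.7 and 61.3 CPM in the CX3CR1+ libraries. The 2 markers called lower were Mmp8 and Csf3r. Mmp8, neutrophil collagenase, was read at 48.4 and 21.7 CPM in the CD9+ libraries and 151 and 163 CPM in the CX3CR1+ libraries (log2 fold change -2.16 ± 0.28, adjusted p = 3.43e-05). Csf3r, the G-CSF receptor, was read at 121 and 91.3 CPM in the CD9+ libraries and 232 and 238 CPM in the CX3CR1+ libraries (log2 fold change -1.15 ± 0.15), and the call of Csf3r was lost without CD9+ replicate 2 (-0.98). Cxcr2, a chemokine receptor of neutrophils, was called higher in the CD9+ sort, with 22.8 and 8.31 CPM in the CD9+ libraries and 1.74 and 1.49 CPM in the CX3CR1+ libraries.

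Among the T, NK and B cell markers 6 of 20 listed genes were tested and 4 were called higher, Igkc, Jchain and Ighm of antibody-producing cells and Nkg7 of cytotoxic cells. Igkc was read at 706 and 532 CPM in the CD9+ libraries and 30.4 and 25.2 CPM in the CX3CR1+ libraries and Jchain at 185 and 149 CPM in the CD9+ libraries and 7.15 and 5.66 CPM in the CX3CR1+ libraries. The list summed to 1801 and 1641 CPM in the CD9+ sort and 237 and 233 CPM in the CX3CR1+ sort. Of 8 tested platelet and erythroid markers 2 were called higher, Pf4 and Itga2b, and the list summed to 110.1 and 121 CPM against 11.9 and 71.1 CPM. The erythroid markers Hba-a1, Hbb-bs, Alas2 and Hba-a2 had log2 fold changes below 0 (-1.47, -1.35, -0.89 and -0.60) and were not called. Hbb-bs was read at 7.2 and 9.02 CPM in the CD9+ libraries and 4.53 and 37 CPM in the CX3CR1+ libraries. Of 15 tested dendritic cell markers, Kit was called higher and Flt3, Dpp4, Bcl11a and Cd209a lower, with sums of 194 and 195 CPM against 241 and 251 CPM. Fibroblast, osteoblast and endothelial markers, of which 2 were called in each direction among 10 tested, summed to 142 and 157 CPM against 79.7 and 151 CPM. Col2a1, a cartilage collagen called lower, was read at 0.288 and 0.203 CPM in the CD9+ libraries and 14.9 and 1.58 CPM in the CX3CR1+ libraries. For Col2a1, CX3CR1+ replicate 1 thus stood far above the other libraries, and its call was lost without CD9+ replicate 1 (-5.30) or CD9+ replicate 2 (-4.82). Col1a1, Col1a2, Col3a1 and Col5a1 were instead higher in CX3CR1+ replicate 2 than in replicate 1, and none of them was called. Col1a1 was read at 14.1 and 17.2 CPM in the CD9+ libraries and 1.74 and 35.2 CPM in the CX3CR1+ libraries. Col3a1 was read at 7.1 and 13.9 CPM in the CD9+ libraries and 0 and 30.5 CPM in the CX3CR1+ libraries.

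The 13 macrophage markers summed to 5759 and 6656 CPM in the CD9+ sort and 11919 and 12663 CPM in the CX3CR1+ sort. Mertk, a receptor for the uptake of dead cells, was called higher, and Emilin2 and Lyz2, the macrophage lysozyme, lower. Csf1r, the receptor for M-CSF, was read at 374 and 519.7 CPM in the CD9+ libraries and 767 and 815 CPM in the CX3CR1+ libraries (log2 fold change -0.82 ± 0.19, adjusted p = 0.00411), which is short of the fold threshold, and Csf1r was called without CD9+ replicate 2 (-1.10). Cd68, a lysosomal macrophage glycoprotein, was at 173 and 295 CPM in the CD9+ libraries and 258 and 287 CPM in the CX3CR1+ libraries. The part of these other cell types in the results below was not tested. For some named genes of the groups below, means in F4/80- cells or neutrophils are given. These include genes whose mean there came near or above that of the population in which the gene was called higher. They also include other genes by way of comparison. A gene named without such a mean may still be high in those sorts. Eosinophils and basophils were not sorted on their own, so the level of a gene in them is not known from these libraries.

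**Figure D2:**
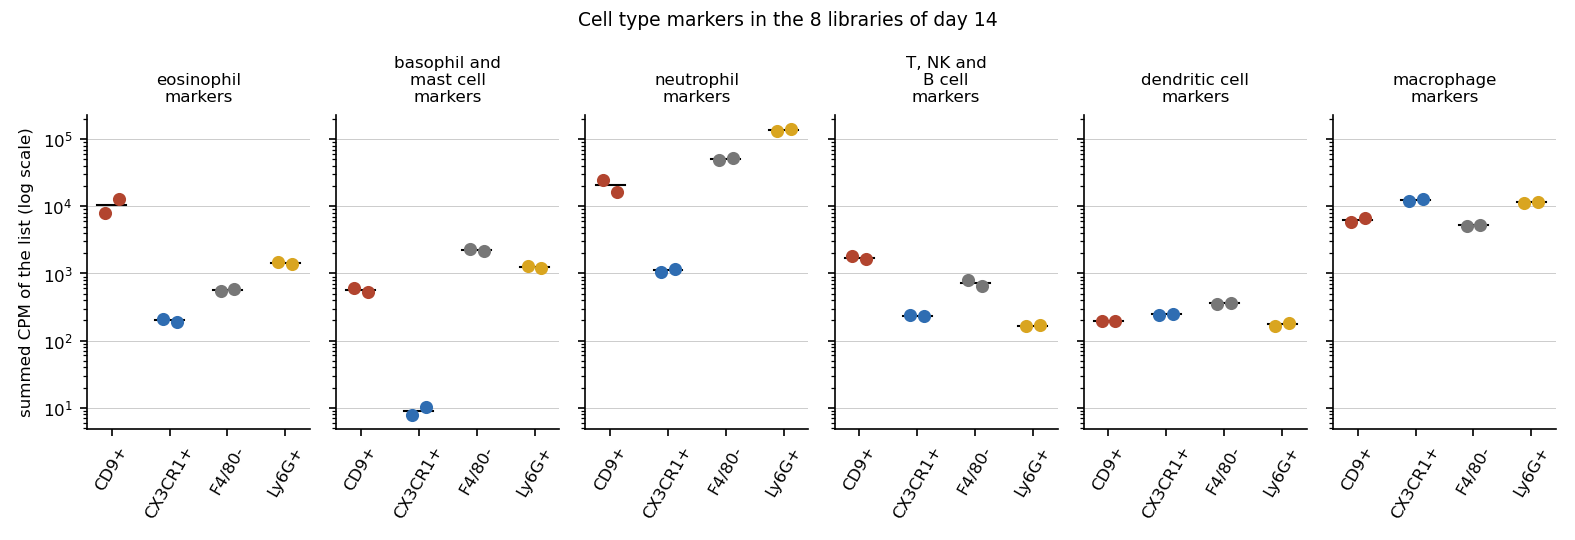
Summed CPM of 6 marker lists (vertical axis, log scale) in the 8 libraries of day 14, 1 point per library with the mean of a population as a bar. Eosinophil, basophil, neutrophil and T, NK and B cell markers lay higher in both CD9+ libraries than in both CX3CR1+ libraries, and macrophage markers lay lower.

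The population with the highest mean CPM among the 4 sorts of day 14 differed between the directions. Of the 1158 genes called higher, 455 (39.3%) were highest in CD9+ macrophages, 456 (39.4%) in neutrophils and 247 (21.3%) in F4/80- cells. Of the 546 genes called lower, 440 (80.6%) were highest in CX3CR1+ macrophages, 101 (18.5%) in neutrophils and 5 (0.916%) in F4/80- cells. The call itself keeps CX3CR1+ macrophages from being highest among genes called higher, and CD9+ macrophages among genes called lower. The shares over all tested genes are not given here, so these shares have no background beside them.

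Interferon-stimulated genes had more calls lower in CD9+ macrophages than any other of the 27 gene lists. Of 88 tested members, 46 were called lower and 2 higher, and the median log2 fold change was -1.09, with 82 members below 0. The sequences upstream of 4 of them are shown here because they hold the core letters of the response element described above. They are the 4 called members with the largest absolute log2 fold change whose 250 bases before the RefSeq transcription start hold the core GAAANNGAA on either strand, and capitals mark the match. The stretches are chr1:173599273-173599522 on the minus strand for Ifi213 (match from base 73 before the start), chr11:82951852-82952101 on the plus strand for Slfn5 (matches from bases 155 and 132), chr1:173942493-173942742 on the minus strand for Ifi203 (base 35) and chr11:83020811-83021060 on the minus strand for Slfn8 (base 47), in GRCm38.p6 and written 5′ to 3′.
Ifi213: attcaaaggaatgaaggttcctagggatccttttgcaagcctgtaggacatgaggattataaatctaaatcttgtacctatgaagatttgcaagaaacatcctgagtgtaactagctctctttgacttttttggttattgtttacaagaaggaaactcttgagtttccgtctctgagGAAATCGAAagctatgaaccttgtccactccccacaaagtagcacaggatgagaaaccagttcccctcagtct
Slfn5: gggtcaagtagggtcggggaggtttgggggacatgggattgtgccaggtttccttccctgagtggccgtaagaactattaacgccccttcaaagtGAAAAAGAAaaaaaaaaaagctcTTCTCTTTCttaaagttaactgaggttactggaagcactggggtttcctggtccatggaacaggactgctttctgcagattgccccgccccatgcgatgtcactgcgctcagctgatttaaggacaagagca
Ifi203: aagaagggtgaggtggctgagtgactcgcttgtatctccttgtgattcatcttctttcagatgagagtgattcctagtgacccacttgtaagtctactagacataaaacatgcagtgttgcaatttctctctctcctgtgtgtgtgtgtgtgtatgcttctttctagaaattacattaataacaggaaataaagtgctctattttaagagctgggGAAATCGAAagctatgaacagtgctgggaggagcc
Slfn8: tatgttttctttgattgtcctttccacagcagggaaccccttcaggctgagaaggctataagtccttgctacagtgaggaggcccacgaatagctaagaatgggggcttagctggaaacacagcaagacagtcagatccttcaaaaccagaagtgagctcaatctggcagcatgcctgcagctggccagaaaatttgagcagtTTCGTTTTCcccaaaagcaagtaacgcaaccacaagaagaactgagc

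In Ifi213 and Ifi203, members of the interferon-inducible cluster of DNA sensors on chromosome 1, the capitals spell the same 9 letters. Over the whole 300-base window of the promoter table, which ends 50 bases after the start, 40 of the 73 list members with a promoter held the core (54.8%). The share was 9.21% of tested genes with a promoter and 8.56% of all 32851 promoters. A gene was counted if any of its promoters matched, so the share of all promoters is in another unit. Among list members, 19 of 33 called lower (57.6%) and 18 of 36 not called held it. Over all genes called lower, 74 of 397 with a promoter did (18.6%), and outside the list 55 of 364 did (15.1%), against 73 of 846 genes called higher (8.63%). A match is a description of the letters and was not tested as a binding site.

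Ifi213 was read at 1.54 and 5.98 CPM in the CD9+ libraries and 23.2 and 29 CPM in the CX3CR1+ libraries (log2 fold change -2.80 ± 0.53, adjusted p = 9.88e-04). Slfn5, a member of the Schlafen family, was read at 61.8 and 106 CPM in the CD9+ libraries and 348 and 409 CPM in the CX3CR1+ libraries (log2 fold change -2.17 ± 0.24, adjusted p = 6.15e-06). Ifi203 was read at 29.7 and 34.9 CPM in the CD9+ libraries and 123 and 135 CPM in the CX3CR1+ libraries (log2 fold change -2.001 ± 0.20). In all 3 of these called genes the CX3CR1+ libraries lay above the CD9+ libraries, and the CD9+ replicate 2 was above replicate 1. Slfn8 differed by -1.76 ± 0.22 on the log2 scale, with 26.9 and 29.3 CPM in the CD9+ libraries and 88.5 and 102 CPM in the CX3CR1+ libraries.

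Of the 88 members, 40 were not called. Among those called lower, Ifitm3, which blocks viral entry at membranes, was read at 68.4 and 83.3 CPM in the CD9+ libraries and 322 and 354 CPM in the CX3CR1+ libraries (log2 fold change -2.16 ± 0.19, adjusted p = 9.21e-07). Mx1, a dynamin-like GTPase against viruses, was read at 9.98 and 19.9 CPM in the CD9+ libraries and 58.1 and 60.7 CPM in the CX3CR1+ libraries (log2 fold change -1.99 ± 0.29). Xaf1, a pro-apoptotic partner of XIAP, was read at 4.42 and 3.65 CPM in the CD9+ libraries and 19.3 and 19.96 CPM in the CX3CR1+ libraries and Ifi209, another member of the DNA sensor cluster, at 42.5 and 56.7 CPM in the CD9+ libraries and 226 and 229 CPM in the CX3CR1+ libraries. Of the signalling components, Irf7, the factor that amplifies the response, was read at 31.5 and 58.1 CPM in the CD9+ libraries and 101 and 111 CPM in the CX3CR1+ libraries (log2 fold change -1.24 ± 0.23), and Stat2 and Irf9 were called lower too (log2 fold changes -1.23 ± 0.23 and -1.25 ± 0.19). Irf7 and Irf9 had means of 85.4 ± 2.44 and 99.2 ± 1.67 CPM in neutrophils. The call of Irf7 was lost without CD9+ replicate 1 (-0.87). Irf2, the repressor of the pathway, was not called, although its adjusted p was 2.58e-04 at a log2 fold change of -0.91 ± 0.15.

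The 2 members called higher were Cd69, an early activation antigen of leukocytes (84.3 and 73.6 CPM in the CD9+ libraries and 24.1 and 22.3 CPM in the CX3CR1+ libraries), and Ifitm1 (8.25 and 5.07 CPM in the CD9+ libraries and 1.57 and 3.25 CPM in the CX3CR1+ libraries), and the call of Ifitm1 was lost without CD9+ replicate 1 (1.08) or CX3CR1+ replicate 1 (1.04). Both were higher again in F4/80- cells, at 203 ± 26.3 and 42.5 ± 3.28 CPM. Slfn1, called lower with 12 and 20.6 CPM in the CD9+ libraries and 104 and 108 CPM in the CX3CR1+ libraries, had a mean of 567 ± 21.5 CPM in neutrophils. Mx1 and Ifi213 were at 0.601 ± 0.169 and 0.507 ± 0.135 CPM in neutrophils. Of the 10 genes that the study used for its interferon score on these same libraries, and which are therefore not an independent list, 5 were called, all lower, namely Mx1, Ifit3, Rsad2, Usp18 and Irf7. This number was 2 of 4 under the stricter filter, and fell to 2 without CD9+ replicate 1 and to 3 without CX3CR1+ replicate 2. The other members, Ifit2, Cmpk2, Cxcl10, Isg15 and Oasl1, had log2 fold changes of -0.70 ± 0.31, -0.82 ± 0.21, -0.90 ± 0.42, -0.78 ± 0.42 and -1.23 ± 0.45 and were not called. Isg15 was called without CD9+ replicate 2 (-1.78), and Oasl1 was called without CD9+ replicate 2 (-2.000).

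Monocyte genes also had more calls lower than higher in CD9+ macrophages. Of 30 tested, 13 were called lower and 3 higher, with a median log2 fold change of -0.92. Ccr2, the receptor that draws monocytes out of the marrow, was read at 267 and 334 CPM in the CD9+ libraries and 1427 and 1530.0 CPM in the CX3CR1+ libraries (log2 fold change -2.30 ± 0.23, adjusted p = 2.43e-06). Vcan, the proteoglycan versican made by blood monocytes, was read at 70.3 and 83.5 CPM in the CD9+ libraries and 493 and 446 CPM in the CX3CR1+ libraries (log2 fold change -2.61 ± 0.24, adjusted p = 1.15e-06). F13a1, the A chain of coagulation factor XIII, was read at 701 and 583 CPM in the CD9+ libraries and 2435 and 2310.2 CPM in the CX3CR1+ libraries (log2 fold change -1.89 ± 0.24). These genes were abundant in CX3CR1+ macrophages and did not overlap between the populations. They were chosen among called genes, and both CD9+ libraries lay below both CX3CR1+ libraries in 33.8% of all genes tested. The means of Ccr2, Vcan and F13a1 in neutrophils were low, 11.9 ± 5.87, 4.38 ± 3.0 and 15.7 ± 7.63 CPM. In F4/80- cells they were 295 ± 38, 25.1 ± 3.23 and 632 ± 80 CPM, beside CD9+ means of 300 ± 47.5, 76.9 ± 9.39 and 642 ± 83 CPM.

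Ms4a4c and Ms4a6c, membrane proteins of the MS4A family, were called lower at log2 fold changes of -2.61 ± 0.26 and -1.77 ± 0.23. Fn1, fibronectin, was among the most abundant transcripts of CX3CR1+ macrophages, with 3353 and 4583 CPM in the CD9+ libraries and 10192 and 10203 CPM in the CX3CR1+ libraries (log2 fold change -1.36 ± 0.23). Nr4a1, a nuclear receptor needed by patrolling monocytes, was read at 273 and 296 CPM in the CD9+ libraries and 959 and 973 CPM in the CX3CR1+ libraries, with a mean of 903 ± 39.1 CPM in neutrophils. Ly6c2, the marker of classical monocytes, was not called (log2 fold change -0.61 ± 0.21). The 3 listed genes called higher, Pglyrp1, Chil3 and Cd177, are also neutrophil genes, with means of 858 ± 73.5, 2502 ± 9.82 and 3533 ± 8.65 CPM in neutrophils.

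Pattern recognition receptors were called lower more often than higher. Of 52 tested, 19 were called lower and 3 higher (12 and 1 of 39 under the stricter filter), and the median log2 fold change was -0.74. The Toll-like receptors for nucleic acids in endosomes were among them, Tlr9, which senses unmethylated DNA, at 17.9 and 20.4 CPM in the CD9+ libraries and 85.7 and 90.9 CPM in the CX3CR1+ libraries (log2 fold change -2.20 ± 0.23), and Tlr7, Tlr8 and Tlr13 at log2 fold changes of -1.34 ± 0.14, -1.65 ± 0.25 and -1.25 ± 0.18. Unc93b1, the chaperone that brings these receptors to the endosome, was called lower too (-1.04 ± 0.14), and the call of Unc93b1 was lost without CX3CR1+ replicate 2 (-0.998). Tlr2, a receptor for bacterial lipoproteins, was read at 75.9 and 94.9 CPM in the CD9+ libraries and 222 and 244 CPM in the CX3CR1+ libraries (log2 fold change -1.45 ± 0.21). Clec7a, the beta-glucan receptor dectin-1, was read at 159.6 and 196 CPM in the CD9+ libraries and 602 and 682 CPM in the CX3CR1+ libraries (log2 fold change -1.85 ± 0.13, adjusted p = 7.42e-08). Tlr13, Tlr2 and Clec7a had means of 341 ± 6.87, 253 ± 10.1 and 568 ± 12 CPM in neutrophils. Tlr4, the receptor for lipopolysaccharide, was not called (log2 fold change -0.12 ± 0.17). The 3 genes called higher were the C-type lectin receptors Clec4n, Clec4d and Clec5a, at log2 fold changes of 1.70 ± 0.28, 1.33 ± 0.30 and 1.22 ± 0.17, and the call of Clec4d was lost without CD9+ replicate 2 (0.92). Clec4d and Clec5a had means of 249 ± 12.6 and 423 ± 11.6 CPM in neutrophils, above the CD9+ sort.

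The chains of MHC class II were not called. Of 19 genes of class II presentation, 4 were called lower and 1 higher, and H2-Aa, H2-Ab1 and H2-Eb1 had log2 fold changes of -0.13 ± 0.18, -0.078 ± 0.17 and 0.11 ± 0.22. The members called lower were Cd86, a costimulatory ligand, with 14.3 and 16.8 CPM in the CD9+ libraries and 55.3 and 51 CPM in the CX3CR1+ libraries, March1, a ubiquitin ligase that turns over class II molecules, H2-DMa, a peptide editor, and Cd40. H2-Oa was called higher. Of 20 class I genes 1 was called in each direction, H2-Q6 higher and Nlrc5, the transactivator of class I genes, lower (log2 fold change -1.01 ± 0.19), and the call of Nlrc5 was lost without CD9+ replicate 2 (-0.96) or CX3CR1+ replicate 2 (-0.94). The class I genes of the H2 family are near copies, so single members are uncertain.

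Transcription factors were called in both directions. Of 80 tested, 11 were called higher and 15 lower (4 and 11 of 59 under the stricter filter), beside 9.65% and 4.55% of all genes tested. Among those called higher were factors of other lineages, Gata2 and Gata1 of basophils, mast cells, eosinophils and erythroid cells, Gfi1 of granulocyte precursors, and Cebpe, the factor of late granulocyte maturation (97.6 and 97.3 CPM in the CD9+ libraries and 2.35 and 2.6 CPM in the CX3CR1+ libraries, log2 fold change 5.30 ± 0.37). Means in F4/80- cells were 401 ± 3.26 CPM for Gata2, 40.04 ± 3.04 CPM for Gfi1 and 125 ± 7.97 CPM for Cebpe, which had 157 ± 3.95 CPM in neutrophils. Among those called lower were interferon regulatory factors Irf5 (log2 fold change -1.44 ± 0.12) and Irf4 (-1.57 ± 0.40) and the stress-induced Atf3 (265 and 316 CPM in the CD9+ libraries and 1322 and 1053 CPM in the CX3CR1+ libraries, log2 fold change -2.03 ± 0.17, adjusted p = 6.03e-07). The call of Irf4 was lost without CD9+ replicate 1 (-1.48). Klf4, a factor of monocyte identity, was read at 431 and 412 CPM in the CD9+ libraries and 1101 and 884 CPM in the CX3CR1+ libraries (log2 fold change -1.24 ± 0.21). Spi1, which encodes the macrophage master factor PU.1, was not called, with 270.0 and 262 CPM in the CD9+ libraries and 297 and 316 CPM in the CX3CR1+ libraries (log2 fold change -0.20 ± 0.10).

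Genes of resident and alternatively activated macrophages had more calls higher than lower. Of 32 tested, 17 were called higher and 2 lower in CD9+ macrophages, and under the stricter filter 1 of 8 in each direction. For the 32, the median log2 fold change was 1.43. The chains of complement C1q, made by mature tissue macrophages, moved together. C1qc was read at 123 and 183 CPM in the CD9+ libraries and 10.1 and 10.3 CPM in the CX3CR1+ libraries (log2 fold change 3.91 ± 0.44, adjusted p = 7.80e-06), and C1qa and C1qb differed by 3.72 ± 0.52 and 3.59 ± 0.44 on the log2 scale. Their means were 0.0408 ± 0.0577, 0.0816 ± 0.115 and 0.159 ± 0.122 CPM in F4/80- cells and 1.16 ± 0.107, 0.61 ± 0.0108 and 0.877 ± 0.804 CPM in neutrophils. All of these means lay under the lowest CD9+ library.

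Stab1, a scavenger receptor, was read at 141 and 239 CPM in the CD9+ libraries and 5.4 and 8.17 CPM in the CX3CR1+ libraries (log2 fold change 4.81 ± 0.43, adjusted p = 8.02e-07). Folr2, a folate receptor of resident macrophages, was read at 9.6 and 18.6 CPM in the CD9+ libraries and 0 and 0.65 CPM in the CX3CR1+ libraries. Arg1, the arginase of alternatively activated macrophages, was read at 33.5 and 44 CPM in the CD9+ libraries and 0.784 and 1.3 CPM in the CX3CR1+ libraries (log2 fold change 5.21 ± 0.30, adjusted p = 1.71e-08). In F4/80- cells these genes had means of 0.20 ± 0.179, 0.0727 ± 0.103 and 0.0816 ± 0.115 CPM and in neutrophils of 5.17 ± 0.182, 0 ± 0 and 0.0602 ± 0.0852 CPM. Mrc1, the mannose receptor, and Mgl2 were called higher as well (log2 fold changes 1.28 ± 0.31 and 1.58 ± 0.41), while Cd163 and Axl were not called (log2 fold changes -0.48 ± 0.70 and 0.53 ± 0.34). The call of Mrc1 was lost without CD9+ replicate 2 (1.03) or CX3CR1+ replicate 1 (1.08), and the call of Mgl2 was lost without CD9+ replicate 1 (1.49), CX3CR1+ replicate 1 (1.65) or CX3CR1+ replicate 2 (1.51). Mgl2 had a mean of 11.2 ± 3.68 CPM in F4/80- cells. The listed genes called lower were Clec7a and Clec10a.

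Receptors and bridging proteins for the uptake of dead cells were counted apart. Of 25 tested, 8 were called higher and 1 lower (3 and 1 of 12 under the stricter filter). Gas6, which links phosphatidylserine on dead cells to TAM receptors, was read at 17 and 26.5 CPM in the CD9+ libraries and 0.174 and 0.65 CPM in the CX3CR1+ libraries (log2 fold change 5.71 ± 0.74). Mertk, its receptor, was read at 12.1 and 20.3 CPM in the CD9+ libraries and 1.39 and 1.86 CPM in the CX3CR1+ libraries (log2 fold change 3.31 ± 0.63), and Cd36, a receptor for oxidized lipids and dead cells, at 106 and 173 CPM in the CD9+ libraries and 15.4 and 21.2 CPM in the CX3CR1+ libraries (log2 fold change 2.93 ± 0.29). All of these were higher in the CD9+ sort, and CD9+ replicate 2 lay above replicate 1 for each. Gas6, Mertk and Cd36 had means of 0.12 ± 0.17, 0.54 ± 0.77 and 1.86 ± 0.44 CPM in neutrophils. All were under 3 CPM, so the 3 members called higher under the stricter filter are other genes. Anxa1, Cd300lf and Olr1, also called higher, had means of 5335 ± 108, 555 ± 1.66 and 133 ± 6.24 CPM in neutrophils. Their means in the CD9+ sort were 932 ± 98.8, 61.3 ± 3.56 and 144 ± 13.2 CPM. Scarb1 was the member called lower (log2 fold change -1.15 ± 0.18).

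In the Trem2-type lipid handling list, which holds genes of lipid-laden macrophages, 16 of 39 tested members were called higher and 1 lower (7 and 0 of 27 under the stricter filter), with a median log2 fold change of 0.62. Cd9 itself is a member and was used for the sort. Spp1, osteopontin, was read at 286 and 498 CPM in the CD9+ libraries and 14.8 and 20.6 CPM in the CX3CR1+ libraries (log2 fold change 4.47 ± 0.26, adjusted p = 1.71e-08). Gpnmb, a transmembrane glycoprotein of phagocytes, was read at 42.8 and 90.2 CPM in the CD9+ libraries and 4.27 and 8.07 CPM in the CX3CR1+ libraries (log2 fold change 3.43 ± 0.36, adjusted p = 4.46e-06). Trem2, the lipid receptor for which the list is named, was called higher at a log2 fold change of 1.34 ± 0.35, and its adaptor Tyrobp was not called (-0.83 ± 0.16). The call of Trem2 was lost without CD9+ replicate 2 (0.68), CX3CR1+ replicate 1 (1.33) or CX3CR1+ replicate 2 (1.33). Cd63, a tetraspanin of late endosomes and granules, was read at 183 and 225 CPM in the CD9+ libraries and 2.0 and 4.18 CPM in the CX3CR1+ libraries (log2 fold change 6.05 ± 0.26, adjusted p = 1.00e-09), but its means were also 162 ± 2.89 CPM in F4/80- cells and 145 ± 0.179 CPM in neutrophils. Spp1, Gpnmb and Cd36 had means of 16.3 ± 1.67, 0.508 ± 0.205 and 1.14 ± 0.691 CPM in F4/80- cells.

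Osteoclast genes overlapped with this list. Of 30 tested, 13 were called higher and 1 lower, the former 8 without CX3CR1+ replicate 1 and 3 of 16 under the stricter filter. Ctsk, the collagen-degrading protease of osteoclasts, was read at 129 and 123 CPM in the CD9+ libraries and 0.697 and 2.23 CPM in the CX3CR1+ libraries (log2 fold change 6.44 ± 1.27, adjusted p = 0.00134). Acp5, the tartrate-resistant acid phosphatase, was read at 87.5 and 104 CPM in the CD9+ libraries and 6.88 and 3.99 CPM in the CX3CR1+ libraries (log2 fold change 4.13 ± 0.40). Atp6v0d2, a proton pump subunit needed for cell fusion, was read at 33.9 and 47.6 CPM in the CD9+ libraries and 0.871 and 0 CPM in the CX3CR1+ libraries (log2 fold change 6.48 ± 1.07). Of the 4 sorts the CD9+ sort had the highest level of each, with means of 3.68 ± 4.49, 6.46 ± 2.76 and 0.648 ± 0.814 CPM in F4/80- cells and 0.945 ± 0.0264, 0.841 ± 0.848 and 0.353 ± 0.353 CPM in neutrophils. The fusion gene Dcstamp was read at 2.5 and 4.87 CPM in the CD9+ libraries and 0.0871 and 0.0928 CPM in the CX3CR1+ libraries, a ratio of 40.6 (95% exact interval 10.8 to 341), and the call of Dcstamp was lost without CX3CR1+ replicate 1 (5.18) or CX3CR1+ replicate 2 (5.25). Tnfrsf11a, which encodes the RANKL receptor RANK, was called higher at a log2 fold change of 1.05 ± 0.33, while the master factor Nfatc1 was not called, with 135 and 171 CPM in the CD9+ libraries and 152 and 162 CPM in the CX3CR1+ libraries (log2 fold change -0.034 ± 0.14). The call of Tnfrsf11a was lost without CD9+ replicate 2 (0.49), CX3CR1+ replicate 1 (0.92) or CX3CR1+ replicate 2 (1.18). Fos was the member called lower (1343 and 1464 CPM in the CD9+ libraries and 3301 and 3028 CPM in the CX3CR1+ libraries, log2 fold change -1.17 ± 0.15), with a mean of 2507 ± 32.2 CPM in neutrophils.

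The lysosome as a whole did not follow the osteoclast genes. Of 73 genes of the lysosome and proton pump, 8 were called higher and 5 lower (4 and 4 of 67 under the stricter filter). Of all genes tested, 9.65% were called higher and 4.55% lower. The median log2 fold change of the list was -0.018. Atp6v0d2, Ctsk, Cd63 and Acp5 led those called higher, and Ctsd, cathepsin D, was read at 189 and 290.2 CPM in the CD9+ libraries and 104 and 112 CPM in the CX3CR1+ libraries (log2 fold change 1.15 ± 0.19), and the call of Ctsd was lost without CD9+ replicate 2 (0.79). Ctsd had a mean of 295 ± 5.93 CPM in neutrophils. Psap, the saposin precursor, was called lower with 1511 and 1867 CPM in the CD9+ libraries and 3595 and 3856 CPM in the CX3CR1+ libraries (log2 fold change -1.14 ± 0.19), as were Ctsc, Ids, Gm2a and Npc2. The motif CACGTG, read on either strand, is bound by factors of the lysosomal gene network. Of the 57 list genes with a promoter, 19 held the motif (33.3%), beside 1066 of the 8851 tested genes with a promoter. Counted by promoter and not by gene, it stood in 7.15% of all promoters. Among list genes, 2 of 7 called higher held it, 0 of 5 called lower and 16 of 44 (36.4%) not called.

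**Figure D3:**
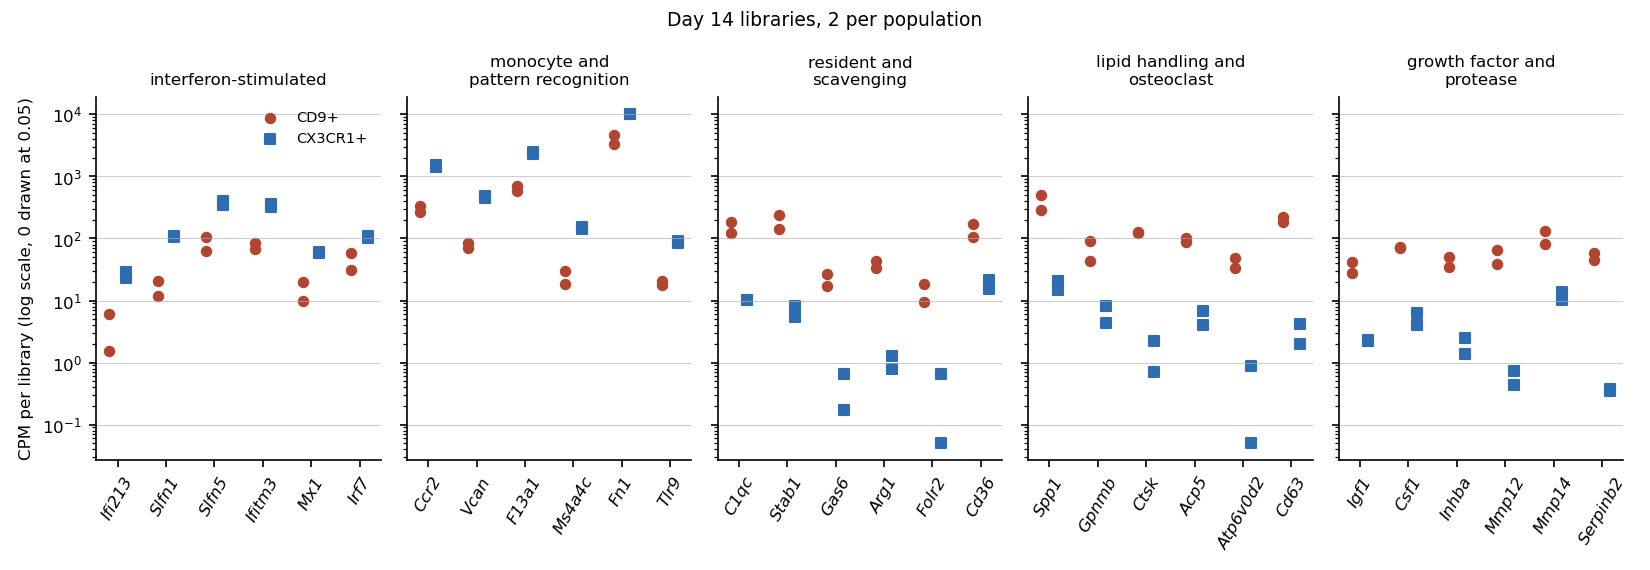
CPM of 30 genes (vertical axis, log scale, a value of 0 drawn at 0.05) in the 2 CD9+ libraries (circles) and the 2 CX3CR1+ libraries (squares) of day 14, grouped by role. The genes were chosen among those called, so their direction follows from that choice. The first 2 panels hold genes called lower and the other 3 panels genes called higher in CD9+ macrophages, and the spacing of the points shows the spread between replicates.

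Growth factors with a role in repair were called in 1 direction. Of 31 tested, 13 were called, all higher (2 of 9 under the stricter filter), with a median log2 fold change of 1.24. Igf1, insulin-like growth factor, was read at 27.6 and 42.2 CPM in the CD9+ libraries and 2.27 and 2.32 CPM in the CX3CR1+ libraries (log2 fold change 3.92 ± 0.55, adjusted p = 7.30e-05). Pdgfa and Pdgfc, ligands for fibroblast receptors, were called higher from low levels, with 5.86 and 8.52 CPM in the CD9+ libraries and 0.697 and 0.0928 CPM in the CX3CR1+ libraries for Pdgfa, and the call of Pdgfa was lost without CX3CR1+ replicate 2 (3.34). Inhba, which encodes activin A, was read at 50.01 and 35.2 CPM in the CD9+ libraries and 1.39 and 2.51 CPM in the CX3CR1+ libraries, but had means of 107 ± 15.1 CPM in F4/80- cells and 256 ± 14.8 CPM in neutrophils. Csf1, the M-CSF gene, was read at 71.8 and 70.3 CPM in the CD9+ libraries and 4.1 and 6.31 CPM in the CX3CR1+ libraries (log2 fold change 3.77 ± 0.26, adjusted p = 6.14e-08), with 177 ± 1.9 CPM in F4/80- cells. Sema7a, a semaphorin, was read at 36.4 and 46.8 CPM in the CD9+ libraries and 0.523 and 0.186 CPM in the CX3CR1+ libraries (log2 fold change 6.82 ± 0.39), and Vegfa, the angiogenic factor, at 89.6 and 90.4 CPM in the CD9+ libraries and 38.8 and 39.6 CPM in the CX3CR1+ libraries (log2 fold change 1.20 ± 0.21). Vegfa had means of 61.7 ± 2.2 CPM in F4/80- cells and 159 ± 5.51 CPM in neutrophils, and Sema7a 37 ± 2.64 CPM in neutrophils. Sema4d, Osm and Tgfb1 had negative differences that missed the fold threshold alone, with log2 fold changes of -0.996 ± 0.16 (adjusted p = 2.03e-04), -0.64 ± 0.16 (0.00841) and -0.57 ± 0.16 (0.0146). Sema4d was called without CD9+ replicate 2 (-1.28) or CX3CR1+ replicate 1 (-1.02), and also on library size only, with filterByExpr and with no filter. Not called either were Areg (-0.64 ± 0.66) and Hgf (0.41 ± 0.25).

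Matrix proteins split between the populations. Of 26 matricellular and provisional matrix genes, 6 were called in each direction, with 3 higher without CX3CR1+ replicate 1 and 2 higher and 5 lower of 16 under the stricter filter. Spp1, Ecm1, Tnc, Tgm2, Col18a1 and the collagen hydroxylase gene P4ha2 were higher in CD9+ macrophages, Ecm1 with 133 and 186 CPM in the CD9+ libraries and 8.89 and 15.4 CPM in the CX3CR1+ libraries (log2 fold change 3.72 ± 0.27) and Tgm2, tissue transglutaminase, with 106 and 150.1 CPM in the CD9+ libraries and 17.7 and 25.1 CPM in the CX3CR1+ libraries (log2 fold change 2.58 ± 0.30). Tgm2 had a mean of 117 ± 7.3 CPM in neutrophils. Vcan, F13a1, Tgm1, Emilin2, Fn1 and Fgl2 were lower, with means in neutrophils of 4.92 ± 1.72 CPM for Tgm1 and 193 ± 4.92 CPM for Fgl2. The crosslinking transglutaminases were thus called in opposite directions, Tgm2 higher and F13a1 and Tgm1 lower. Thbs1, thrombospondin, was not called (log2 fold change -0.23 ± 0.26).

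Proteases and their inhibitors had the highest median of the 27 gene lists, 2.40, with 12 of 21 tested members called higher and 1 lower (4 and 1 of 11 under the stricter filter). Mmp12, macrophage elastase, was read at 39.4 and 65.7 CPM in the CD9+ libraries and 0.436 and 0.743 CPM in the CX3CR1+ libraries (log2 fold change 6.46 ± 0.72, adjusted p = 7.76e-06). Mmp14, a membrane-bound collagenase, was read at 81.3 and 134 CPM in the CD9+ libraries and 10.3 and 13.6 CPM in the CX3CR1+ libraries (log2 fold change 3.17 ± 0.29, adjusted p = 1.01e-06). Serpinb2, an inhibitor of plasminogen activation, was read at 44.5 and 57.8 CPM in the CD9+ libraries and 0.349 and 0.371 CPM in the CX3CR1+ libraries (log2 fold change 7.12 ± 0.49). These had means of 2.23 ± 0.998, 1.69 ± 0.845 and 0.422 ± 0.020 CPM in F4/80- cells and 0.257 ± 0.364, 1.29 ± 0.222 and 1.05 ± 0.901 CPM in neutrophils. Mmp9 and Mmp25, in contrast, are abundant in neutrophils (6253 ± 251 and 750.0 ± 5.81 CPM), and were read at 165 and 142 and 45.5 and 44.4 CPM in the CD9+ libraries. The inhibitor Timp2 was called higher (115 and 175 CPM in the CD9+ libraries and 23.2 and 31.7 CPM in the CX3CR1+ libraries, log2 fold change 2.40 ± 0.31), with a mean of 338 ± 5.6 CPM in neutrophils, and Timp1 was not (1.07 ± 0.81), although Timp1 was called without CX3CR1+ replicate 2 (4.16).

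Cytokines differed in both directions. Of 31 tested members of the list, 9 were called higher and 5 lower, the latter 3 without CD9+ replicate 1 or without CX3CR1+ replicate 2, and under the stricter filter 4 and 2 of 14. Il1b was read at 73 and 78.6 CPM in the CD9+ libraries and 175 and 192 CPM in the CX3CR1+ libraries (log2 fold change -1.28 ± 0.18, adjusted p = 8.46e-05), and Nlrp3, the sensor of the inflammasome that matures it, at 70.3 and 57.6 CPM in the CD9+ libraries and 216 and 191 CPM in the CX3CR1+ libraries (log2 fold change -1.67 ± 0.28). Il18 was called lower as well (log2 fold change -1.83 ± 0.56), but the call of Il18 was lost without CD9+ replicate 1 (-2.06), CD9+ replicate 2 (-1.65), CX3CR1+ replicate 1 (-1.66) or CX3CR1+ replicate 2 (-1.98). Tnf was called higher, with 47.2 and 46.8 CPM in the CD9+ libraries and 22.6 and 20.8 CPM in the CX3CR1+ libraries (log2 fold change 1.12 ± 0.24), as was Il1rn, the IL-1 receptor antagonist, with 45.9 and 75.4 CPM in the CD9+ libraries and 18 and 21.2 CPM in the CX3CR1+ libraries (log2 fold change 1.63 ± 0.26). Il1b and its antagonist were therefore called in opposite directions. Il1b, Nlrp3, Tnf and Il1rn had higher means in neutrophils than in either macrophage sort. These means were 1638 ± 21.5 CPM for Il1b, 337 ± 32.1 CPM for Nlrp3, 101 ± 1.23 CPM for Tnf and 313 ± 2.96 CPM for Il1rn. Il18 was lower in neutrophils than in both macrophage sorts, at 1.39 ± 1.1 CPM. Tnf had a mean of 59.7 ± 1.05 CPM in F4/80- cells. Il6, with 17.9 and 15.7 CPM in the CD9+ libraries and 1.92 and 2.51 CPM in the CX3CR1+ libraries (log2 fold change 2.93 ± 0.32), had a mean of 127 ± 7.73 CPM in F4/80- cells, and Il4, read at 4.03 and 4.16 CPM in the CD9+ libraries and 0.0871 and 0 CPM in the CX3CR1+ libraries and at 7.72 ± 1.55 CPM in F4/80- cells, is also one of the basophil markers.

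Among 20 chemokines 7 were called higher and 2 lower (1 and 1 of 5 under the stricter filter). Cxcl2, a neutrophil attractant, was read at 133 and 239 CPM in the CD9+ libraries and 38.8 and 38.3 CPM in the CX3CR1+ libraries (log2 fold change 2.27 ± 0.34, adjusted p = 1.25e-04). Its mean in neutrophils was 459 ± 9.75 CPM. Cxcl3, its relative, was read at 17.7 and 34.2 CPM in the CD9+ libraries and 0.174 and 0.278 CPM in the CX3CR1+ libraries, a ratio of 114 (95% exact interval 48.7 to 354). Cxcl16 and Ccl7 were called higher too (log2 fold changes 2.20 ± 0.26 and 1.88 ± 0.34). Ccl2, the ligand of CCR2, was lower, with 63.9 and 88.2 CPM in the CD9+ libraries and 209 and 181 CPM in the CX3CR1+ libraries (log2 fold change -1.36 ± 0.20), as was Ccl9 (-1.09 ± 0.15), and the call of Ccl9 was lost without CD9+ replicate 1 (-0.96). Ccl3 was at 109.9 and 102 CPM in the CD9+ libraries and 221 and 157 CPM in the CX3CR1+ libraries, and its log2 fold change of -0.83 ± 0.24 was short of the threshold (adjusted p = 0.0187), but Ccl3 was called without CX3CR1+ replicate 2 (-1.07).

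The receptors for chemokines and chemoattractants split as well, 6 higher and 3 lower of 20 (1 and 2 of 10 under the stricter filter). C3ar1 and C5ar1, receptors for the complement fragments C3a and C5a, were read at 159.6 and 317 CPM in the CD9+ libraries and 7.84 and 20.6 CPM in the CX3CR1+ libraries and at 49.2 and 48.5 CPM in the CD9+ libraries and 11 and 12.3 CPM in the CX3CR1+ libraries (log2 fold changes 4.07 ± 0.37 and 2.07 ± 0.17). C5ar1 had means of 41.8 ± 0.903 CPM in F4/80- cells and 409 ± 22.6 CPM in neutrophils. Cx3cr1, one of the sort antigens, Ccr2 and Gpr35 were the receptors called lower. With C1q, Cd55 and Itgax, 7 of 17 complement genes were called higher (2 of 7 under the stricter filter), while C3 was not called (-0.29 ± 0.17). Cd55 had a mean of 146 ± 3.2 CPM in neutrophils.

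Integrins and tetraspanins were called in both directions, 9 higher and 4 lower of 32 (7 and 2 of 22 under the stricter filter). Cd9, which was used for the sort, is 1 of the 9. Cd81, another tetraspanin and a frequent membrane partner of CD9, was read at 58.6 and 51.7 CPM in the CD9+ libraries and 3.4 and 4.64 CPM in the CX3CR1+ libraries (log2 fold change 3.78 ± 0.22, adjusted p = 1.71e-08), with means of 54.3 ± 6.11 CPM in F4/80- cells and 78.9 ± 4.82 CPM in neutrophils. Itga6, a laminin receptor subunit, was higher (2.32 ± 0.17), with a mean of 67.6 ± 6.6 CPM in F4/80- cells beside 78.4 and 86.5 CPM in the CD9+ libraries, and Itga4, the VLA-4 subunit used by monocytes to leave the blood, was lower, with 375 and 369 CPM in the CD9+ libraries and 961 and 1082 CPM in the CX3CR1+ libraries (log2 fold change -1.46 ± 0.13, adjusted p = 6.62e-07).

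**Figure D4:**
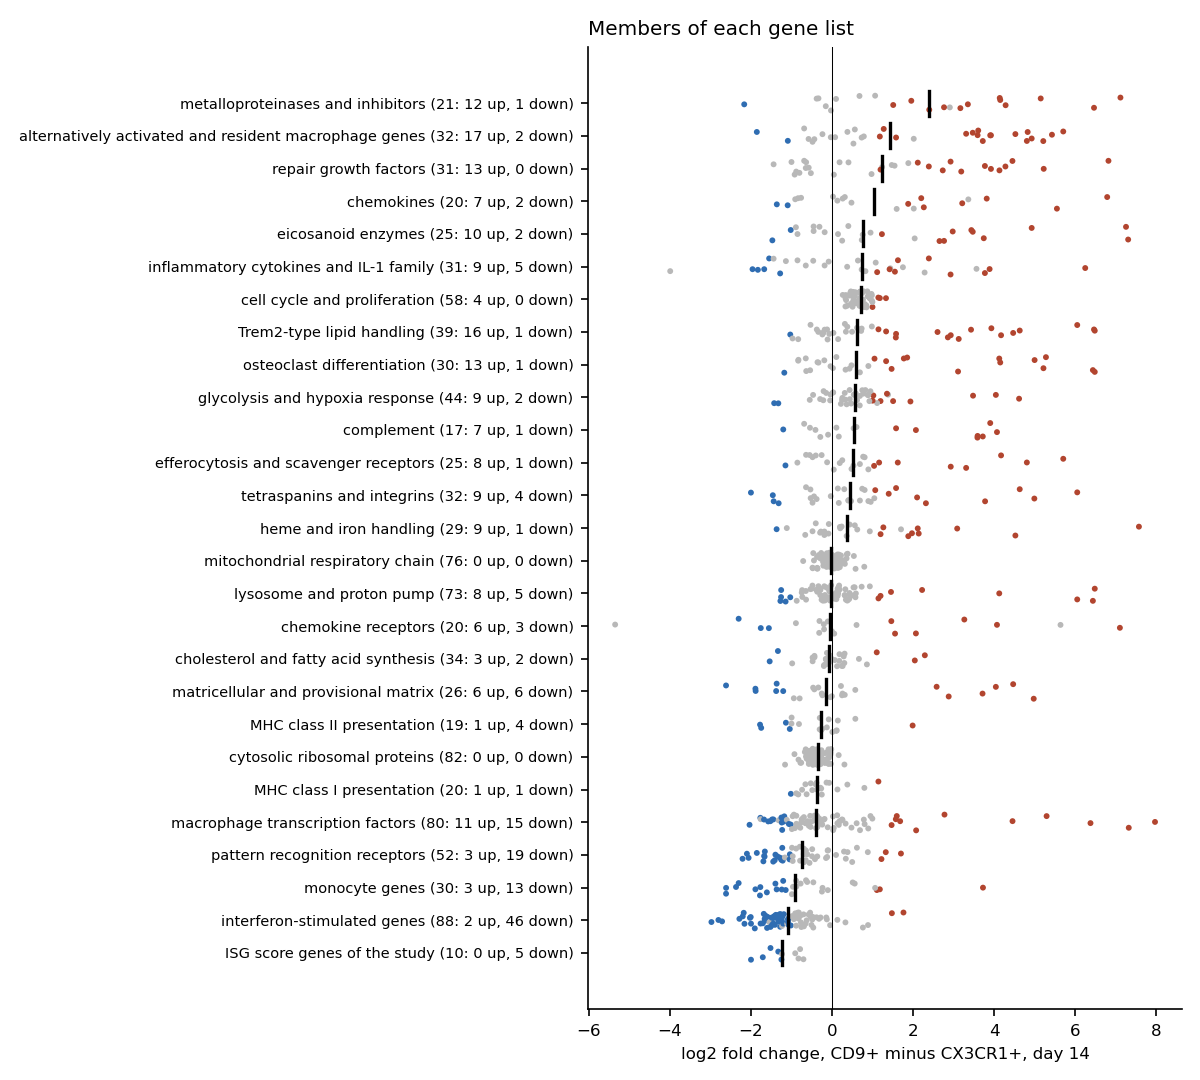
Log2 fold change (CD9+ minus CX3CR1+, day 14, horizontal axis) of every tested member of 27 gene lists, 1 point per gene, red where called higher, blue where called lower and grey where not called, with the median of a list as a bar. The labels give the number of tested members and of calls; interferon, monocyte and pattern recognition genes lie mostly below 0, and the metalloproteinase, resident macrophage and growth factor lists have the highest medians.

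Of 25 genes of eicosanoid synthesis and signalling, 10 were called higher, 2 lower and 13 not called (4, 0 and 11 of 15 under the stricter filter). Alox15, which makes resolving lipid mediators and is also an eosinophil marker, was read at 368 and 498 CPM in the CD9+ libraries and 3.22 and 2.41 CPM in the CX3CR1+ libraries (log2 fold change 7.25 ± 0.28, adjusted p = 3.44e-10). Alox5 and Lta4h, which lead to leukotriene B4, were read at 173 and 182 CPM in the CD9+ libraries and 13.1 and 19.7 CPM in the CX3CR1+ libraries and at 664 and 549 CPM in the CD9+ libraries and 104 and 89 CPM in the CX3CR1+ libraries, and their means in neutrophils were 759.8 ± 24.4 and 981 ± 17.7 CPM. Hpgds, prostaglandin D synthase, was called higher at 2.98 ± 0.58, and Ptgs2, the inducible cyclooxygenase, was not called (-0.85 ± 0.26), but Ptgs2 was called without CD9+ replicate 2 (-1.04) or CX3CR1+ replicate 1 (-1.02). Hpgd, which degrades prostaglandins, was called lower (26.8 and 37.3 CPM in the CD9+ libraries and 83.7 and 93.6 CPM in the CX3CR1+ libraries, log2 fold change -1.47 ± 0.35), and the call of Hpgd was lost without CD9+ replicate 1 (-1.25).

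Iron genes were called higher in 9 of 29 and lower in 1 (4 and 1 of 18 under the stricter filter). Slc40a1, the iron exporter ferroportin, was read at 38.1 and 32.6 CPM in the CD9+ libraries and 1.57 and 1.49 CPM in the CX3CR1+ libraries (log2 fold change 4.53 ± 0.37) and Tfrc, the transferrin receptor, at 62.4 and 50.3 CPM in the CD9+ libraries and 10.8 and 14.8 CPM in the CX3CR1+ libraries (log2 fold change 2.14 ± 0.26). In neutrophils Slc40a1 had a mean of 275 ± 24.1 CPM, and in F4/80- cells Tfrc had one of 78 ± 0.91 CPM. Steap4, a metalloreductase, was without a count in both CX3CR1+ libraries and was read at 1.54 and 1.93 CPM in the CD9+ libraries, at least 6.41-fold higher than a floor of 3 counts per library. Its mean in neutrophils was 12.5 ± 0.526 CPM. Hmox1, the heme oxygenase, was not called (log2 fold change 0.57 ± 0.29), and the exporter gene Flvcr1 was called lower (-1.36 ± 0.21, 86.5 ± 1.86 CPM in neutrophils).

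Glycolysis and hypoxia genes were called higher in 9 of 44 and lower in 2 (5 and 2 of 33 under the stricter filter), with a median log2 fold change of 0.56 and 34 members above 0. Slc2a3, a glucose transporter, was read at 178 and 155 CPM in the CD9+ libraries and 4.53 and 9.1 CPM in the CX3CR1+ libraries (log2 fold change 4.62 ± 0.25, adjusted p = 1.45e-08), with a mean of 1707 ± 80.03 CPM in neutrophils. Ldha, lactate dehydrogenase, was read at 211 and 225 CPM in the CD9+ libraries and 114 and 101 CPM in the CX3CR1+ libraries (log2 fold change 1.02 ± 0.15), and the call of Ldha was lost without CD9+ replicate 2 (0.96) or CX3CR1+ replicate 2 (0.92). Ldha had means of 219 ± 3.76 CPM in F4/80- cells and 428 ± 27.6 CPM in neutrophils. Ndrg1 and Slc2a6 were called lower (-1.42 ± 0.16 and -1.32 ± 0.17, the latter with 115 ± 4.56 CPM in neutrophils), and Hk1 and Gpi1 were short of the fold threshold (0.62 ± 0.15 and 0.93 ± 0.13). Of 76 genes of the mitochondrial respiratory chain 0 were called by edgeR and 0 by DESeq2, around a median of -0.013, and 6 had an unadjusted edgeR p under 0.05.

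The remaining lists held few calls. All 58 tested cell cycle genes lay above 0, with a median log2 fold change of 0.71 and a range of 0.27 to 1.33. Of these, 50 had an unadjusted edgeR p under 0.05, but 4 were called, Rrm2, Ccne2, Cdc6 and Mcm2. The number was 12 without CD9+ replicate 2, 10 without CX3CR1+ replicate 1, 7 with upper quartile factors and 8 of 56 under the stricter filter. Rrm2, a subunit of ribonucleotide reductase, was read at 232 and 165 CPM in the CD9+ libraries and 81.1 and 76.4 CPM in the CX3CR1+ libraries and had a mean of 322 ± 1.33 CPM in F4/80- cells. Mki67 was not called (log2 fold change 0.53 ± 0.21). Of 82 ribosomal protein genes 0 were called by edgeR and 0 by DESeq2, with a median of -0.35, 80 members below 0 and 38 at an unadjusted edgeR p under 0.05. Of 34 genes of cholesterol and fatty acid synthesis 3 were called higher, among them the desaturases Fads1 and Fads2, and 2 lower, Elovl6 and Mvd.

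The day 14 difference was then set beside that of day 1, from 4 other libraries. On day 1, 763 genes (6.36%) were called higher and 225 (1.88%) lower. Of the genes called higher on day 14, 557 were also called higher on day 1, which is 48.1% of the day 14 calls and 73.0% of the day 1 calls. Of the genes called lower, 87 were shared, 15.9% of the day 14 calls and 38.7% of the day 1 calls. On library sizes without scaling factors, 613 genes were called higher and 501 lower on day 1, so the number called lower on that day depends on the scaling.

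The interaction of population and day, the test of whether the difference itself changed, called 273 genes (2.28%), 161 (1.34%) with a higher and 112 (0.933%) with a lower value on day 14. Of the 161, 62 were called higher on both days and 83 on day 14 alone, and of the 112, 77 were called lower on day 14 alone. Leaving out CD9+ day 1 replicate 1 moved the number to 907. The CD9+ replicates of day 1 had the lowest correlation of log2 CPM of the 8 groups, 0.935, against 0.976 to 0.988 in the other groups. Leaving out a CX3CR1+ library of day 1 gave 165 (replicate 1) and 154 (replicate 2) genes, and of day 14 gave 123 and 137. Without CD9+ day 1 replicate 2 the number was 416, and without CD9+ day 14 replicate 2 it was 179. On library sizes without scaling factors the split was 260 higher and 54 lower.

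The C1q chains were called on day 14 and not on day 1. C1qb was at 114 ± 17.2 CPM in CD9+ and 141 ± 24.2 CPM in CX3CR1+ macrophages on day 1 (mean ± SD, n = 2). On day 14 it was at 145 ± 54.1 and 12 ± 0.862 CPM, with an interaction of 3.90 ± 0.57 on the log2 scale (adjusted p = 0.00203). Stab1 was at 234 ± 134 and 119.7 ± 27.5 CPM on day 1 and at 190 ± 69.7 and 6.79 ± 1.96 CPM on day 14. Its interaction was 3.85 ± 0.53 (adjusted p = 0.00125). For both genes the mean that fell far between the days was that of CX3CR1+ macrophages. Spp1 and Arg1 were called higher on both days, with interactions of 1.99 ± 0.32 and 2.72 ± 0.38. On day 1 Spp1 was at 2978 ± 560.1 and 533 ± 36 CPM and Arg1 at 2391 ± 299 and 426 ± 81.1 CPM. These lay above the day 14 levels in both populations. The ratio between the populations was larger on day 14 while the levels and their difference in CPM were smaller. Reps2 and Lrg1 were among the 6 abundant genes with the largest positive interactions. Reps2, an endocytic adaptor, was at 3.7 ± 3.43 and 2.96 ± 1.21 CPM on day 1 and at 29.3 and 41.7 CPM in the CD9+ libraries and 0.871 and 0.278 CPM in the CX3CR1+ libraries on day 14 (interaction 5.64 ± 0.84, adjusted p = 0.00215). Lrg1, a secreted glycoprotein, was at 60.6 ± 17.2 and 53.4 ± 8.51 CPM on day 1 and at 46.7 and 28.5 CPM in the CD9+ libraries and 1.13 and 0.743 CPM in the CX3CR1+ libraries on day 14, with a mean of 424 ± 29.6 CPM in neutrophils on day 14 (interaction 5.12 ± 0.43, adjusted p = 2.84e-05).

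Thbd, Slfn1 and Arhgef37 were among the 6 abundant genes with the largest negative interactions. Thbd, thrombomodulin, an anticoagulant receptor, was at 109 ± 46.5 and 88.4 ± 6.25 CPM on day 1 and at 35.4 and 50.2 CPM in the CD9+ libraries and 190.4 and 179.5 CPM in the CX3CR1+ libraries on day 14 (interaction -2.41 ± 0.35, adjusted p = 0.00171). Il1b was at 438 ± 97.5 and 449 ± 43.4 CPM on day 1, before the day 14 difference given above (interaction -1.24 ± 0.25, adjusted p = 0.0144), and the call of Il1b was lost without CD9+ day 1 replicate 2 (-0.99), CX3CR1+ day 1 replicate 1 (-1.13), CD9+ day 14 replicate 1 (-1.17) or CX3CR1+ day 14 replicate 2 (-1.16). Among interferon-stimulated genes 8 of 88 had a called interaction, all negative, Ifitm3 (-1.40 ± 0.26) and Slfn1 (-2.10 ± 0.32) among them, and all 8 were called on day 14 and not on day 1. Other members were called on day 1, 7 of the 88 lower and 1 higher. The call of Ifitm3 was lost without CX3CR1+ day 1 replicate 2 (-1.35), CD9+ day 14 replicate 1 (-1.25) or CX3CR1+ day 14 replicate 2 (-1.32). Fn1 had an interaction of -1.80 ± 0.32, and Ccr2 was called lower on both days without a called interaction (-1.12 ± 0.31, adjusted p = 0.0673), although Ccr2 was called without CD9+ day 1 replicate 1 (-1.11). Of the eosinophil markers, Epx had a called interaction of 3.33 ± 0.74, but the call of Epx was lost without CX3CR1+ day 1 replicate 2 (2.92), CD9+ day 14 replicate 2 (2.90) or CX3CR1+ day 14 replicate 2 (2.89).

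**Figure D5:**
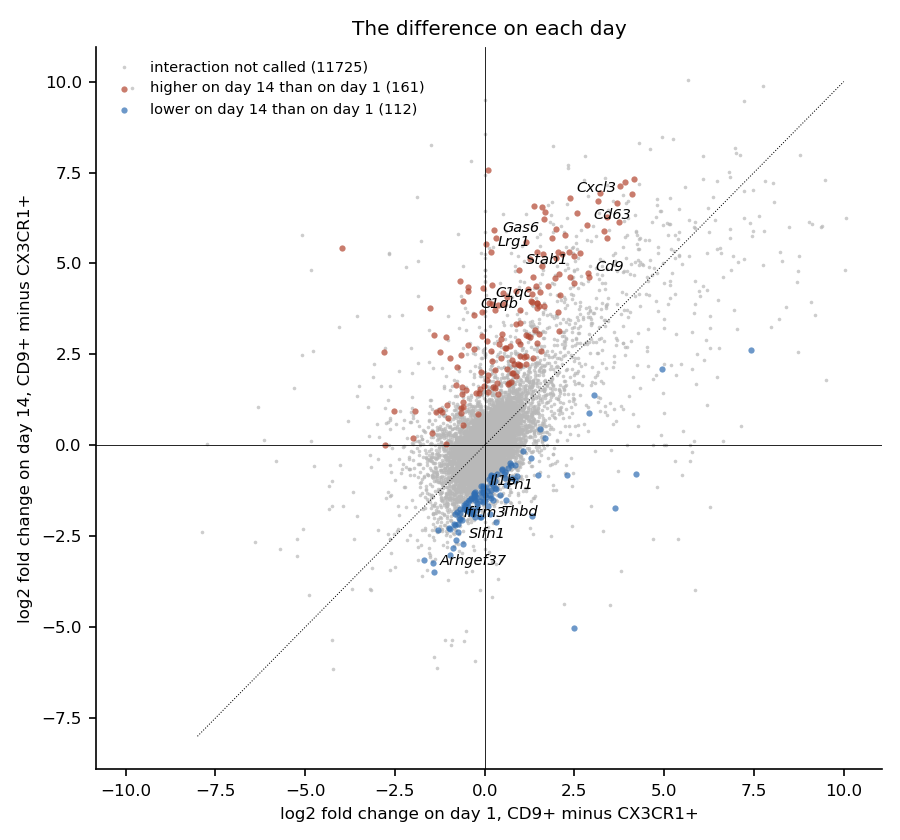
Log2 fold change between CD9+ and CX3CR1+ macrophages on day 14 (vertical axis) against day 1 (horizontal axis), 1 point per tested gene, with the line of equal differences dotted. Red marks the 161 genes whose difference was called higher on day 14 than on day 1 and blue the 112 called lower.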

How the data were processed

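The deposited table held raw counts per gene for 16 libraries, 2 in each of 8 groups of sorted population and day. According to the study's methods, the authors prepared stranded SMART-Seq libraries from pooled mice, sequenced them in paired ends, trimmed adapters with Cutadapt, and mapped reads to mm10 and counted exonic reads of Gencode genes with STAR. STAR, edgeR and mm10 are also named in the submitters' processing notes. Whether the counting used strand is not given in the sources used here, so overlapping and antisense genes are uncertain. The table listed 20200 genes, each with at least 17 counts in all. No column was left unused.

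From these counts, genes were tested where the mean of any 1 of the 8 groups reached 3 CPM (11998 genes). TMM factors, group means for all 16 libraries and a quasi-likelihood test were fitted with edgeR 4.0.16 in R 4.3.3, with 8 residual degrees of freedom. p-values were adjusted over all tested genes by the method of Benjamini and Hochberg. The difference of day 14 minus that of day 1 was tested as an interaction. The fit was tested on simulated data. DESeq2 1.42.0, other scaling factors and filters, other sets of libraries, other thresholds, a replicate block and the omission of each library were tried as alternatives.

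The labels do not say that libraries of a group came from separate experiments, so p-values measure the spread between these pools. Replicate numbers are shared between populations of a day. For CD9+ and CX3CR1+ macrophages of day 14 the deviations of same-numbered libraries from their group means had a correlation of 0.12 across 11998 genes, which are not independent replicates, and the libraries were not treated as paired.

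Some items are not reported here. The members of the gene lists, the lists and the tests were chosen with earlier results of these data known. Named genes were the sort antigens, the 15 genes of largest absolute log2 fold change in each direction with a mean of at least 10 CPM in the higher group and no overlap of libraries, called members of each list by size, up to 4 others in list order, and the genes of largest interaction. Genes named beyond these were taken from the study's text or chosen after their values were seen. Promoter sequences are from RefSeq on GRCm38.p6, the assembly of mm10, and were matched by gene symbol. Total counts of the 4 compared libraries were 9233952 to 10254500.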

Additional observations from a re-analysis of the deposited data

Results flagged for a closer look

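The difference between CD9+ and CX3CR1+ macrophages itself differed between days 1 and 14 (edgeR interaction test, adjusted p under 0.05) for the genes given here, on the log2 scale as day 14 minus day 1. The values were 5.12 for Lrg1 (adjusted p = 2.84e-05), 5.64 for Reps2 (0.00215), 3.90 for C1qb (0.00203), 3.85 for Stab1 (0.00125), 2.72 for Arg1 (0.00143) and 1.99 for Spp1 (0.00392). They were -2.41 for Thbd (0.00171), -2.10 for Slfn1 (0.00271), -2.05 for Arhgef37 (0.00826) and -1.80 for Fn1 (0.00719). All of these passed the threshold without each of the 8 macrophage libraries in turn.

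The remaining calls were each lost without at least 1 library. Iglc2, an immunoglobulin light chain gene, had an interaction of 9.40 (adjusted p = 0.00915), and 4.09 without CX3CR1+ day 1 replicate 1 and 8.72 without CX3CR1+ day 14 replicate 1. Cd276, an immune checkpoint ligand, had 5.51 (0.00612), and 4.93 without CX3CR1+ day 14 replicate 1. Gas6 had 5.40 (0.00953), and 5.04 without CD9+ day 14 replicate 2 and 4.76 without CX3CR1+ day 14 replicate 1. Slamf9 had 5.39 (0.0135), and 5.17 without CD9+ day 14 replicate 2, 5.23 without CX3CR1+ day 14 replicate 1 and 5.59 without CX3CR1+ day 14 replicate 2. Epx had 3.33 (0.0237), and 2.92 without CX3CR1+ day 1 replicate 2, 2.90 without CD9+ day 14 replicate 2 and 2.89 without CX3CR1+ day 14 replicate 2.

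Of the negative ones, Oplah, an enzyme of glutathione turnover, had -2.28 (adjusted p = 0.0266), with calls lost at values of -2.07 without CX3CR1+ day 1 replicate 1, -1.95 without CD9+ day 14 replicate 2, -2.26 without CX3CR1+ day 14 replicate 1 and -2.28 without CX3CR1+ day 14 replicate 2. Arg2, the mitochondrial arginase, had -2.10 (0.0222), with -1.74 without CX3CR1+ day 1 replicate 1, -1.75 without CD9+ day 14 replicate 1, -2.12 without CX3CR1+ day 14 replicate 1 and -2.04 without CX3CR1+ day 14 replicate 2. Sirpb1b, which has close relatives, had -2.05 (0.0117), with -1.91 without CX3CR1+ day 1 replicate 1, -1.54 without CD9+ day 14 replicate 1 and -1.95 without CX3CR1+ day 14 replicate 2. Ifitm3 had -1.40 (0.00915) and Il1b -1.24 (0.0144), and their values without single libraries stand with the day comparison.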

How the results depend on the processing

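The number of genes called on day 14, 1704, was 1430 to 1965 with DESeq2, the other scaling factors, filterByExpr, no filter, the other sets of libraries, the replicate block and a test against a 1.5-fold change. It was 695 (423 higher and 272 lower) with a mean CPM of at least 3 required in every group, which tests fewer genes, and 3160 (1742 and 1418) with no fold threshold. Leaving out each of the 4 libraries gave 1363 to 1558. The interaction count of 273 (161 and 112) was 439 (270 and 169) with DESeq2, 314 (260 and 54) on library size only, and 156 (96 and 60) with the 8 macrophage libraries. Leaving out each macrophage library gave 123 to 907 genes, 76 to 537 higher and 41 to 370 lower, and the cause was not tested. The 225 genes called lower on day 1 became 501 on library size only. In the fit with a replicate block inside each day, 1689 genes were called on day 14 (1141 and 548), 982 on day 1 and 312 in the interaction (190 and 122). The samples share only a number, and the block ended the call of Tnfrsf11a at a log2 fold change of 1.00 and added Oasl1 at -1.24 and Sema4d at -1.003. Of genes named in the report as not called, the sign reversed for Nfatc1 with the filter on every group (0.00029). Leaving out single libraries gave -0.23 to 0.12 for Nfatc1, -0.67 to 0.11 for Cd68, -0.23 to 0.041 for H2-Ab1, -0.30 to 0.031 for Tlr4 and -0.11 to 0.49 for Adgre1, as log2 fold changes. Calls were also lost for Ighg3 with DESeq2 (adjusted p = 0.23), for Trem2 (0.0558) and Il18 (0.0846) against a 1.5-fold change, for Gprin3 (0.0513) and Ly6g (0.0718) with the 8 macrophage libraries, for the interaction of Epx with DESeq2 (0.295), and for Nlrc5 with upper quartile factors (log2 fold change -0.99) and Ldha with no filter (0.99). Of 1224 list counts under alternatives, 1083 stayed within 1.5 times and 141 did not, among them 17 called resident macrophage genes, 12 metalloproteinase genes and 13 growth factors that became 1, 4 and 2 with the filter on every group. Depth limits the 170 genes called higher that had 3 counts or fewer in both CX3CR1+ libraries, whose fitted fold change depends on the prior count.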
